A study of Homo sapiens with 9 samples.

Results

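The genes described here are 40 genes that act in mitosis, the stage at which a cell separates its copied chromosomes and divides. They were taken by symbol from a count table of 58336 genes, all 40 were found, and all 40 were among the 13845 genes with enough counts to be tested. RNA was sequenced from HaCaT cells, human skin keratinocytes that grow as an immortal line, in 9 samples of 3 groups with 3 in each. One group was labelled control. The other 2 were given low-dose photodynamic therapy: cells take up 5-aminolevulinic acid (ALA, 0.5 mmol per litre), convert it to the light-sensitive protoporphyrin IX and are then lit with red light (635 ± 5 nm, 3 J per square centimetre). RNA was collected 12 h after the treatment in one of these groups and 48 h after it in the other. The library columns of the table carry the stems Nc, A and B, each with 3 libraries. Nc was read as control, and A and B, the remaining 6 columns for the remaining 6 samples, as the treated groups. That assignment is a reading, not a label, and neither A nor B is tied to 12 h or 48 h, so results are given by stem and say nothing about time. Nothing in the labels says whether the libraries of a group came from separate cultures, so p-values measure the spread between these libraries, which may be technical.

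A cell enters mitosis when cyclin B and the kinase CDK1 become active together, and the kinases PLK1 and AURKA push the same switch. Kinetochores, built on centromeres marked by CENPA, hold the chromosomes to the spindle, and the spindle checkpoint holds back the anaphase-promoting complex until every chromosome is attached. That complex, with CDC20 and UBE2C, then destroys cyclin B and securin (PTTG1), the chromatids part, and the central spindle and the contractile ring divide the cell. Most of these genes are transcribed in late S, G2 and M phase. The DREAM and MuvB complexes and FOXM1 control them at short promoter elements, so their messenger RNA follows how many cells are cycling. In bulk RNA, fewer cells in a phase and less RNA per cell cannot be told apart.

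The 9 libraries held 15337296 to 18028419 counts. Keratinocyte markers were present in all of them (KRT5 at 5016 to 7991 counts, TP63 at 1952 to 3491), although KRT14, the keratin partner of KRT5, had 2 to 20 counts, while the simple-epithelium keratins KRT7, KRT8, KRT18 and KRT19 had 14916 to 79518. Libraries also differed in RNA of another cell type. The adult beta-globin gene HBB, the mark of red cells, had 6700, 6665 and 2 counts across Nc1 to Nc3, 519, 1115 and 7 across A1 to A3, and 4, 6 and 7550 across B1 to B3. The 6 red cell markers together ranged from 3 to 7474 counts in the control libraries, 7 to 1244 in A and 4 to 8404 in B. The 6 leukocyte markers ranged from 17 to 212, 44 to 68 and 24 to 251 counts. Summed markers of fibroblasts, endothelium and melanocytes had 14 to 258 counts in any library, and the endothelial ones were higher in B (197 to 246) than in control or A (27 to 73), mostly through CDH5. The part of these transcripts in the results was not tested, and results are given with and without the libraries that hold them.

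Many promoters of mitotic genes hold a CHR (cell cycle genes homology region), an element bound by MuvB complexes, and one or more CCAAT boxes. Of the 40 genes, 34 had a promoter in the RefSeq table (GRCh38.p14), and AURKA, BIRC5, FOXM1, TPX2, UBE2C and TTK did not. A CHR, searched as TTTGAA or TTTAAA on both strands from 100 bases before to 50 bases after the start, was found in 27 of the 34 (79.4%), against 11.3% of 27305 promoters. With TTTGAA alone it was 21 of 34 (61.8%) against 6.91%. A CCAAT on either strand within the whole window of 300 bases was found in 27 of 34 (79.4%) against 35.7%. A perfect E2F-like site, TTTCGCGC or TTTGGCGC, was found in 2 of 34 (5.88%) against 1.18%. TTTAAA reads the same on both strands, and the motifs may overlap at their ends. These are matches of letters, not measured binding.

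The first 4 promoters below belong to the genes with the highest control level among those with a CHR near the start, and the last 2, HMMR and CENPE, were added after their values were seen because they had the largest fold changes in B. Each runs 5′ to 3′ on the gene's own strand from 100 bases before to 20 bases after the start, in RefSeq GRCh38.p14, with the CHR and CCAAT letters (or ATTGG, the CCAAT of the other strand) in capitals. The capitals that open PTTG1 are the end of an ATTGG that begins before the printed stretch. The coordinates are chr1:43358881-43359000 (+) for CDC20, chr5:160421755-160421874 (+) for PTTG1, chr5:69167050-69167169 (+) for CCNB1, chr1:37692416-37692535 (+) for CDCA8, chr5:163460532-163460651 (+) for HMMR and chr4:103198324-103198443 (-) for CENPE.
CDC20: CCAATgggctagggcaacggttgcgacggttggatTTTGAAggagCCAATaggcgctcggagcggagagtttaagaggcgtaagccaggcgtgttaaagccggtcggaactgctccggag
PTTG1: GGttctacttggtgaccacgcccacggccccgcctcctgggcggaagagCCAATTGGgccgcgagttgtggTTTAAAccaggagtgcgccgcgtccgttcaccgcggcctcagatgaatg
CCNB1: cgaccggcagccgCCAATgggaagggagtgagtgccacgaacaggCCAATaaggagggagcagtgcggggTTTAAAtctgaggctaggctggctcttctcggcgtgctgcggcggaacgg
CDCA8: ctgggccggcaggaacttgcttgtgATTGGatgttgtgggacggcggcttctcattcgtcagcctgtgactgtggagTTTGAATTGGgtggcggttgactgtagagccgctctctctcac
HMMR: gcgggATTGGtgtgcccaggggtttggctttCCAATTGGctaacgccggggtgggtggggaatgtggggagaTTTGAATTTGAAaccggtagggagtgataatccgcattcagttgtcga
CENPE: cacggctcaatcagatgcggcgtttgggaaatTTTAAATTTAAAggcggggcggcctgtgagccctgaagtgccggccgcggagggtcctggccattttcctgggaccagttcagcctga
In HMMR and CENPE the CHR letters stand 2 times in a row, starting 28 and 22 bases before the start in HMMR and 68 and 62 bases before it in CENPE, and CENPE holds no CCAAT in its 300 bases. CDC20, PTTG1, CCNB1 and CDCA8 carry the same short letters and, in the values that follow, did not pass the test of B against control. Of the 17 genes that fell in B and had a promoter in the table, 13 had a CHR near the start and 11 a CCAAT. Of the 17 that did not pass the test in B, 14 had a CHR and 16 a CCAAT.

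The control cells expressed the whole set at unequal levels. Per length, the highest control levels were those of UBE2C, the ubiquitin-conjugating enzyme of the anaphase-promoting complex, at 153 ± 25.3 FPKM (SD, n = 3), CDC20 at 151 ± 8.03, PTTG1 at 120.2 ± 22.1 and CCNB1 at 96.5 ± 6.78. UBE2C and CDC20 did not differ beyond their spread. The proliferation marker MKI67 stood at 23.5 ± 3.31 FPKM and the transcription factor FOXM1 at 30.5 ± 0.739. At the low end were the kinesin CENPE at 2.28 ± 0.115 FPKM and PRC1, which bundles microtubules of the central spindle, at 0.154 ± 0.0687. PRC1 had 4 to 24 counts per library and overlaps another listed gene, AC068831.7, on the same strand, so its level is uncertain. Of the 40, 23 overlap another listed gene and 9 of these do so on the same strand, among them CENPA, which overlaps SLC35F6, and BUB1B, which overlaps BUB1B-PAK6. The rule by which shared reads were assigned is not given in the sources used here.

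Summed over the 40 genes, CPM (counts scaled to a common library size, with TMM sizes) were 4433, 4031 and 4066 in Nc1 to Nc3, 4202, 4097 and 4177 in A1 to A3, and 3522, 3514 and 3244 in B1 to B3. Every B library lay below every control and every A library, and the A and control libraries overlapped.

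**Figure D1:**
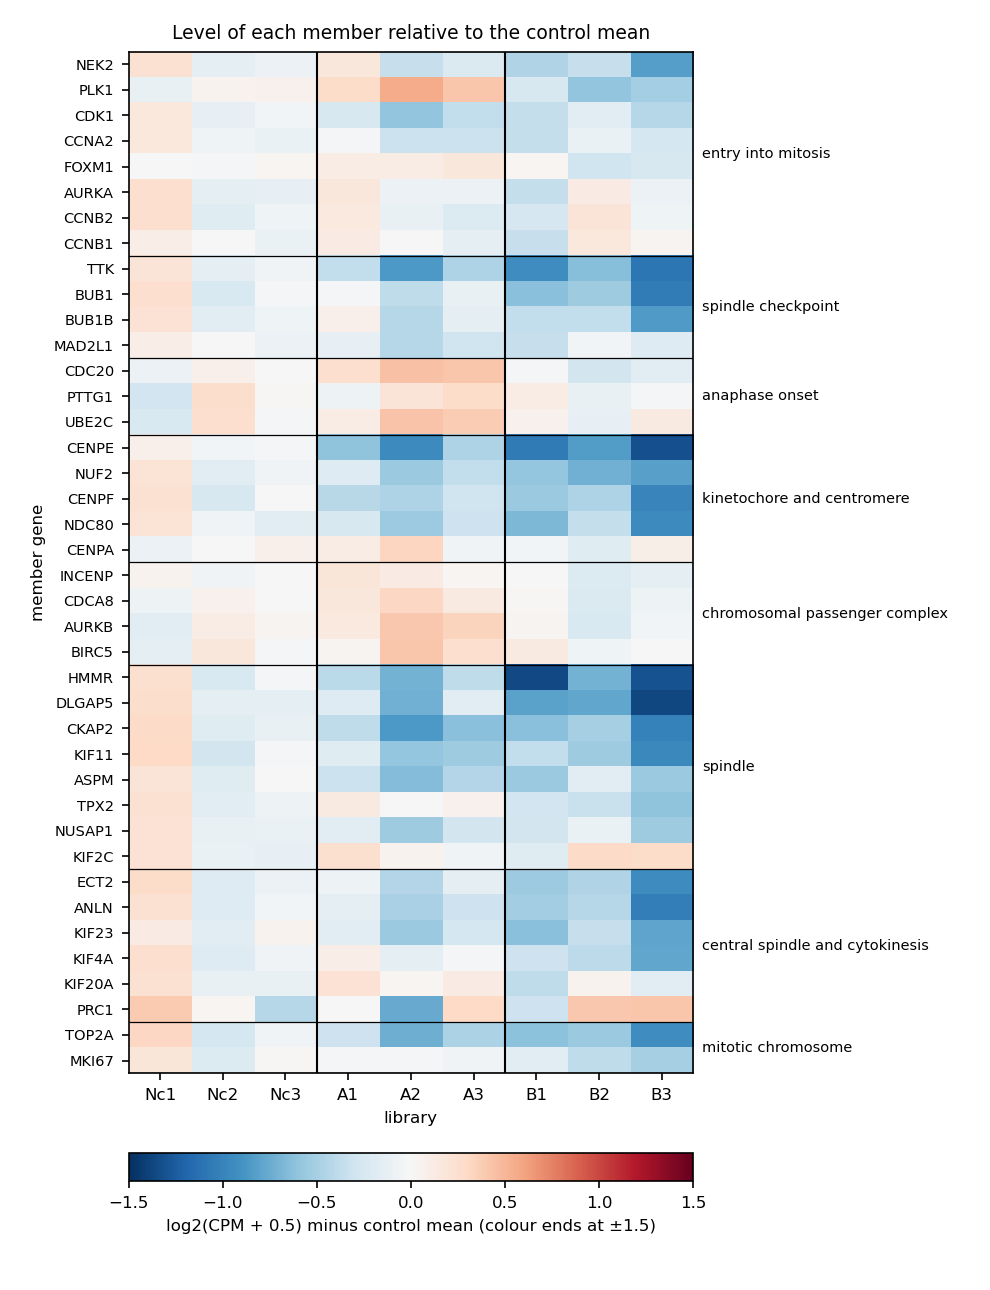
Level of each of the 40 genes (rows, by role) in each of the 9 libraries (columns), as log2(CPM + 0.5) minus the mean of the 3 control libraries. Blue is lower and red higher than control. CENPE, TTK, HMMR and DLGAP5 are blue in every A and B library, the chromosomal passenger complex is near white in B and pale red to near white in A, and Nc1 is pale red for most genes.

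In B, 18 of the 40 mitosis genes fell relative to control and 0 rose. By role, 3 of 4 genes of the spindle checkpoint fell, 4 of 5 of the kinetochore, 4 of 6 of the central spindle and cytokinesis, 4 of 8 of the spindle, 2 of 8 of mitotic entry and 1 of 2 on the chromosomes, while 0 of 3 genes of anaphase onset and 0 of 4 of the chromosomal passenger complex passed the test. HMMR fell by 54.4% of the control level and CENPE fell by 53.3%, the largest falls among the 40. The background was 7.24% of all 13845 genes lower and 6.12% higher (edgeR quasi-likelihood test, Benjamini-Hochberg adjusted p below 0.05), against 45% of the 40 lower. The median log2 fold change of the 40 was -0.38, beside -0.002 over all genes tested, and 36 of the 40 were below 0. Every B library lay below every control library for 20 of the 40, where 14.6% of all genes did so. At an unadjusted p below 0.05, 23 of the 40 were lower and 0 higher, where 15.2% and 14% of all genes passed. DESeq2 also called 0 of the 40 higher, beside 6.87% of all genes.

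Of the 8 genes of mitotic entry, PLK1 and NEK2 fell in B. NEK2, a centrosome kinase, stood at 31.2, 23.9 and 24.8 CPM in the control libraries, 29.9, 20.8 and 22.8 in A and 19.2, 20.7 and 14.7 in B. The B libraries were all below control, and the log2 fold change was -0.55 (SE 0.17, edgeR adjusted p = 0.0397). PLK1 is described with the comparison of B and A. CCNB1, cyclin B1, had 263, 246 and 229 CPM in control, 268, 246 and 222 in A and 194, 275 and 252 in B. Its groups overlapped throughout, and its log2 fold change in B was -0.03, with a 95% interval of -0.33 to 0.26. FOXM1 stood at 149, 146 and 152 CPM in control, 161, 161 and 167 in A and 152, 120.3 and 126 in B, a log2 fold change in B of -0.16 (SE 0.12, edgeR adjusted p = 0.388). B1 lay at the control level and the other B libraries below it. CCNB2, cyclin B2, had 100.2, 74.1 and 80.1 CPM in control, 93.5, 77.7 and 73.1 in A and 70.7, 96.03 and 80.3 in B, with all groups overlapping. CDK1, CCNA2, CCNB2 and AURKA had log2 fold changes between -0.32 and -0.04 and did not pass the test.

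The spindle checkpoint kinases TTK and BUB1 and the related checkpoint protein BUB1B fell in B. TTK, also called MPS1, which starts checkpoint signalling at kinetochores (chromosome 6, 80003887 to 80042527, GRCh38), stood at 45.2, 35.6 and 38.0 CPM in control, 30.3, 21.5 and 28.5 in A and 20.5, 25.2 and 18.3 in B. Both treated stems lay wholly below control. The log2 fold change in B was -0.89 (SE 0.16, edgeR adjusted p = 0.00294), and that of BUB1B was -0.53 (SE 0.16, edgeR adjusted p = 0.0410). BUB1B, with 52.1, 39.8 and 42.8 CPM in control, 47.0, 33.0 and 40.8 in A and 34.5, 34.5 and 24.5 in B, overlapped control in A and lay below it in B. MAD2L1, which inhibits CDC20 in the checkpoint complex, had 70.1, 65.0 and 61.7 CPM in control, 59.9, 48.6 and 53.2 in A and 51.6, 63.8 and 57.0 in B. Its B libraries overlapped control and it did not pass the test.

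At anaphase onset the B and control libraries of all 3 genes overlapped. UBE2C had 165, 232 and 191 CPM in control, 211, 261 and 253 in A and 203, 178 and 214 in B. Its log2 fold change in B was 0.02, with a 95% interval of -0.29 to 0.32. PTTG1, the securin that restrains separase, had 195, 287 and 242 CPM in control, 226, 272 and 290 in A and 257, 221 and 235 in B. Its groups overlapped in all 3 comparisons.

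At the kinetochore, CENPE, CENPF, NDC80 and NUF2 fell. CENPE, a kinesin that carries chromosomes to the spindle equator (chromosome 4, 103105806 to 103198409), stood at 22.6, 20.8 and 20.9 CPM in control, 13.9, 10.8 and 15.4 in A and 9.99, 11.8 and 8.28 in B. No treated library reached the control range, and the log2 fold change in B was -1.10 (SE 0.17, edgeR adjusted p = 0.00138). NDC80 and NUF2 pair in the complex that grips microtubules, and fell by 0.67 and 0.74 on the log2 scale. CENPA, the histone H3 variant of centromeres, had 35.9, 38.3 and 40.3 CPM in control, 41.1, 47.7 and 36.8 in A and 37.0, 33.5 and 40.5 in B. It overlapped in every pair of groups.

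The chromosomal passenger complex corrects faulty attachments and holds AURKB, its kinase, with INCENP, BIRC5 (survivin) and CDCA8 (borealin). Its 4 genes had log2 fold changes of -0.12 to 0.02 in B. INCENP, the scaffold, had 88.4, 82.0 and 85.9 CPM in control, 96.7, 93.0 and 87.3 in A and 85.7, 74.1 and 76.8 in B. BIRC5 had 140.4, 173 and 150.2 CPM in control, 158, 205 and 184 in A and 170, 147 and 153 in B. For both, B and control overlapped, and the 95% intervals of the log2 fold change were -0.35 to 0.12 and -0.26 to 0.30.

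Among 8 spindle genes, HMMR, DLGAP5, CKAP2 and KIF11 fell. HMMR, a hyaluronan receptor that also acts at the spindle poles (chromosome 5, 163460203 to 163491945), stood at 36.8, 26.3 and 30.7 CPM in control, 23.2, 18.8 and 23.7 in A and 11.8, 18.8 and 12.2 in B. Its B libraries were all below control and A, though B2 barely lay below A2 (18.75 against 18.78 CPM). The log2 fold change of B against control was -1.13 (SE 0.18, edgeR adjusted p = 0.00185). DLGAP5, which stabilises the fibres between kinetochore and pole, fell by 0.99 and KIF11, the motor that pushes the poles apart, by 0.63 on the log2 scale. KIF2C, a kinesin that takes microtubules apart, had 86.9, 69.6 and 68.3 CPM in control, 88.3, 77.5 and 71.9 in A and 65.3, 91.2 and 90.4 in B. B1 was the lowest and B2 the highest of its 9 values, and it did not pass the test. NUSAP1, which binds spindle microtubules, had 68.6, 54.9 and 55.1 CPM in control, 52.5, 40.8 and 49.0 in A and 49.0, 55.2 and 40.6 in B, and B2 reached into the control range. TPX2 and ASPM had log2 fold changes of -0.41 and -0.42 (edgeR adjusted p = 0.0513 and 0.0598).

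In cytokinesis, ECT2, ANLN, KIF23 and KIF4A fell in B. ECT2, which activates RhoA at the division plane, stood at 111, 79.5 and 86.0 CPM in control, 86.7, 66.9 and 82.5 in A and 62.2, 66.3 and 47.2 in B. Its B libraries lay below all others, and it fell by 0.66 on the log2 scale, as did ANLN (anillin), a scaffold of the contractile ring. KIF20A, a kinesin of the central spindle, had 95.8, 75.7 and 75.3 CPM in control, 94.7, 83.7 and 88.8 in A and 62.7, 84.6 and 72.9 in B. Its groups overlapped. PRC1 had a log2 fold change of 0.27 with an SE of 0.48, which its few counts leave undetermined.

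On the chromosomes, TOP2A fell and MKI67 did not pass the test. TOP2A, the topoisomerase that untangles sister chromatids, stood at 309, 208 and 239 CPM in control, 200.1, 149 and 178 in A and 162, 169 and 130.1 in B, a log2 fold change in B of -0.71 (SE 0.16, edgeR adjusted p = 0.0106). All treated libraries were below all control libraries. MKI67, which coats mitotic chromosomes (chromosome 10, 128096659 to 128126385), had 340, 259 and 302 CPM in control, 293, 293 and 289 in A and 268, 228 and 212 in B. B1 reached into the control range, and the log2 fold change in B was -0.35 (SE 0.13, edgeR adjusted p = 0.0887).

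**Figure D2:**
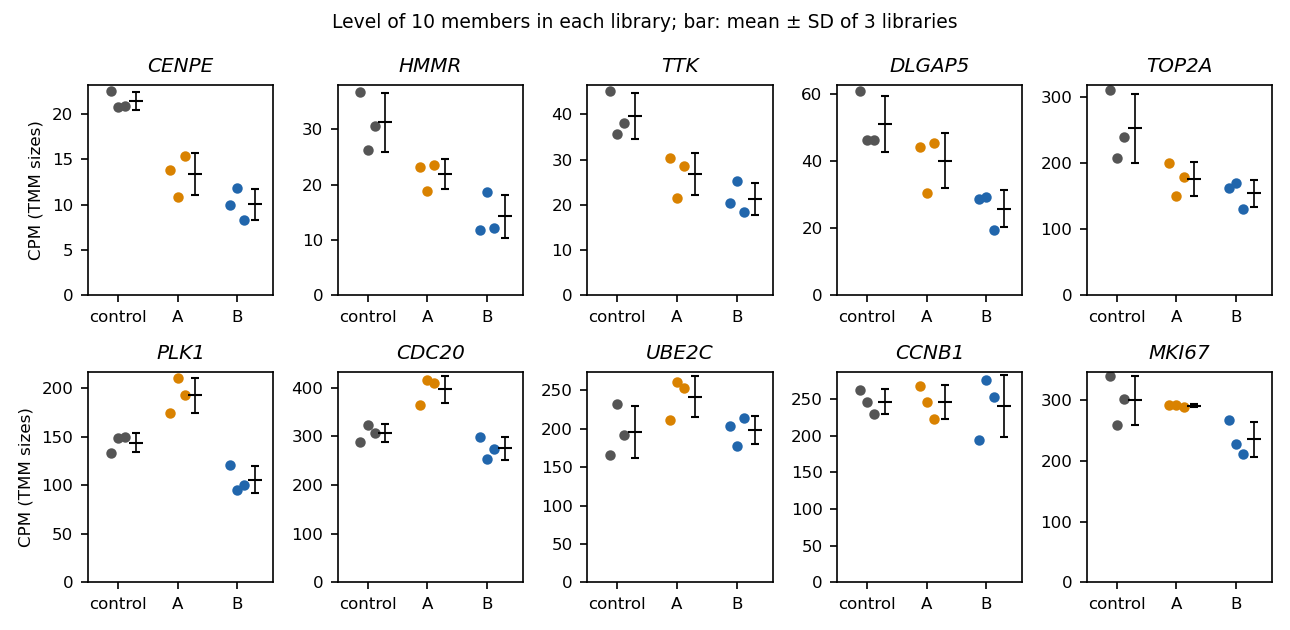
CPM of 10 of the genes in each library (points) for control, A and B, with the mean and SD of the 3 libraries of each group as a bar beside them. The axes start at 0. CENPE, HMMR, TTK and TOP2A are below control in all 6 treated libraries, PLK1 is above control in A and below it in B, and CCNB1 overlaps throughout.

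The count of 18 depended on single libraries. Without B3, which has the most HBB counts, 5 of the 40 remained called (CENPE, DLGAP5, HMMR, NUF2 and TTK), where 1.44% of all genes were called lower. Without Nc3 it was 12, beside 3.43% of all genes lower. Without the other libraries in turn it was 14 to 19, beside 3.8% to 7.45%. Without Nc1, Nc2 and B3, the 3 libraries with over 5000 HBB counts, control is a single library, assumed to vary like the rest, and 1 of the 40 (HMMR) was called lower, beside 0.075% of all genes. The median log2 fold change was then -0.27 against 0.025 over all genes.

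In A, 1 of the 40 fell relative to control, CENPE, and 0 rose. The comparisons of A and of B with control share the same 3 control libraries. By role, all 4 genes of the spindle checkpoint and 4 of 5 of the kinetochore had log2 fold changes below 0. All 3 genes of anaphase onset and all 4 of the chromosomal passenger complex were above 0, at 0.11 to 0.37. These roles also differ in GC content, set against the fold changes below. The checkpoint and kinetochore genes below 0 had transcripts of 35.3% to 43.2% GC, the anaphase onset and passenger genes 49.3% to 59.6%. Of all genes tested, 0.953% were called lower and 1.76% higher. The median over the 40 was -0.17, beside 0.009 over all genes, and 27 of the 40 were below 0. At an unadjusted p below 0.05, 14 were lower and 3 higher (PLK1, CDC20 and AURKB), where 11.1% and 11.4% of all genes passed. DESeq2 called 6 lower and 2 higher, beside 2.57% and 3.16% of all genes.

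CENPE, with the values given above, had a log2 fold change in A of -0.68 (SE 0.16, edgeR adjusted p = 0.0357). With the replicate number as a block it was not called (edgeR adjusted p = 0.0719), and 0 of the 40 passed, beside 0.686% of all genes lower. Every A library lay below every control library for 13 of the 40 and above it for 5, where 12.3% and 13.8% of all genes did so. CKAP2, a microtubule-associated protein, came next, with 81.4, 58.4 and 61.6 CPM in control, 51.1, 36.3 and 42.7 in A and 42.8, 47.0 and 32.6 in B. Its A libraries did not overlap control, and its log2 fold change in A was -0.63 (SE 0.17, edgeR adjusted p = 0.0543). AURKB had 157, 189 and 180.0 CPM in control, 194, 231 and 220.1 in A and 181, 149 and 170 in B. It was the passenger gene with the largest value in A, a log2 fold change of 0.29 (SE 0.13, edgeR adjusted p = 0.189).

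KIF23, a kinesin of the central spindle, had 68.6, 55.7 and 65.2 CPM in control, 56.1, 42.5 and 52.3 in A and 40.5, 49.3 and 36.2 in B. A1 overlapped control, and the log2 fold change in A was -0.33 (SE 0.14). MKI67 and CCNB1 were near 0 in A, at -0.04 and -0.002. Without Nc1 the median of the 40 in A was -0.02 and without A2 it was -0.04, and in both cases CENPE was not called (edgeR adjusted p = 0.0919 and 0.218). It was called without A1, where 5 of the 40 were lower and 1 higher, beside 2.47% of all genes lower. It was not called without any other of the A and control libraries.

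**Figure D3:**
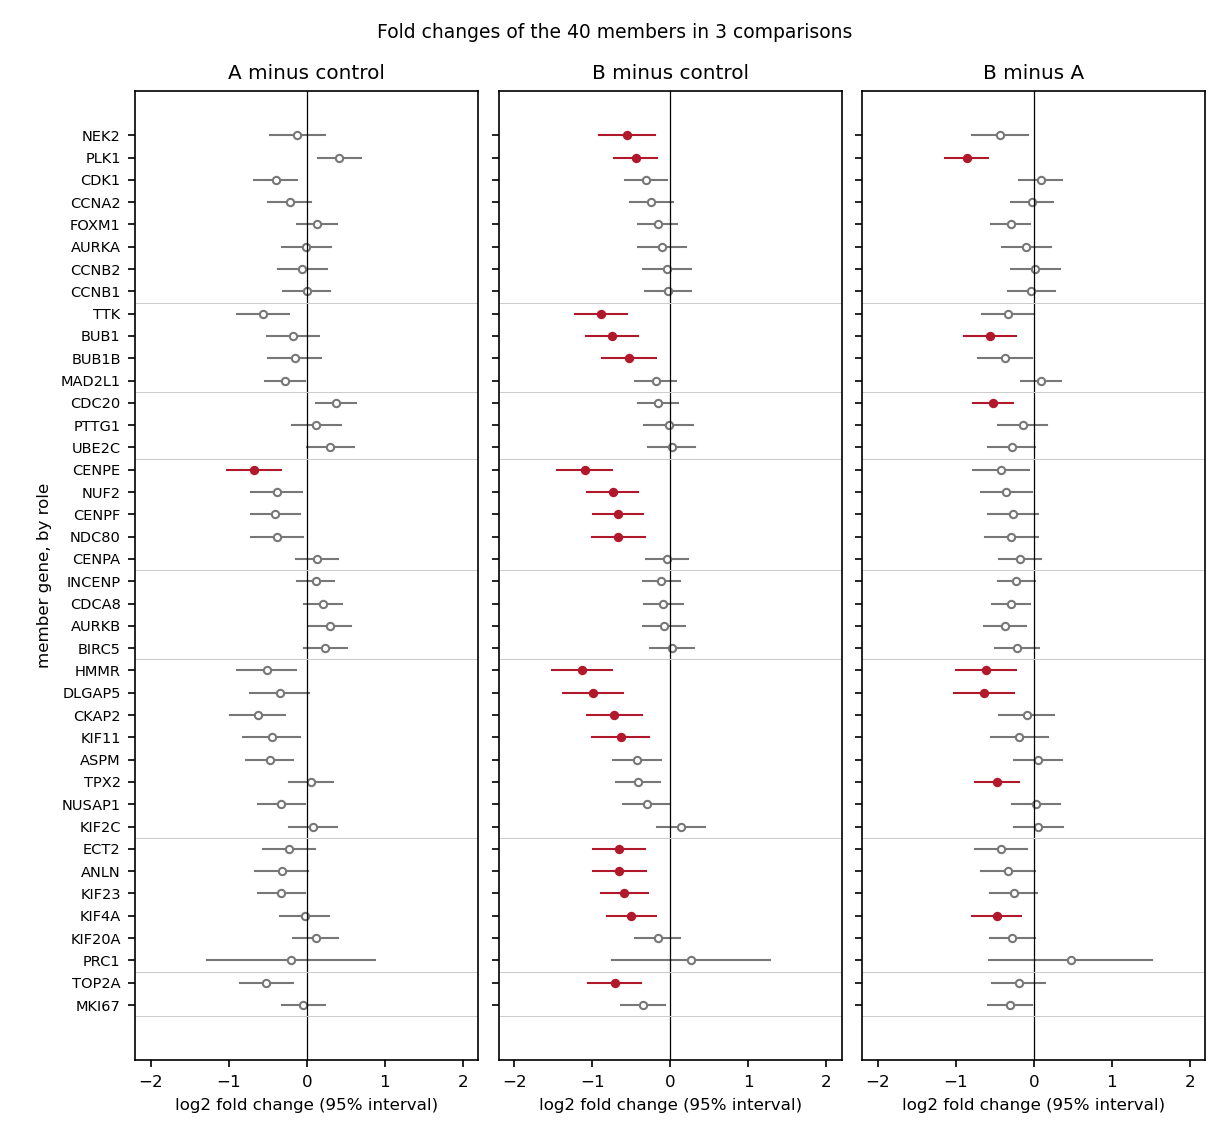
Log2 fold change (x axis, point) with 95% interval (line) of each of the 40 genes for A minus control, B minus control and B minus A. Filled red points passed the test (edgeR adjusted p below 0.05) and open grey points did not. B minus control has 18 red points, A minus control 1 and B minus A 7, all to the left of 0, and the interval of PRC1 is the widest.

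B and A were then compared directly. The control libraries enter this fit through the filter, the library sizes and the estimate of spread, and do not enter the difference itself. Of the 40, 7 were lower in B than in A and 0 higher: PLK1, BUB1, CDC20, TPX2, DLGAP5, HMMR and KIF4A. Over all genes, 9.25% were lower and 8.79% higher. The median over the 40 was -0.28, beside -0.02 over all genes, and every B library lay below every A library for 16 of the 40, where 17.1% of all genes did so. DESeq2 called 8 of the 40 lower and 0 higher, where it called 10.2% and 9.73% of all genes. At an unadjusted p below 0.05 there were 16 lower and 0 higher, where 16.8% and 15.7% of all genes passed.

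PLK1, a kinase needed from mitotic entry to cytokinesis (chromosome 16, 23677656 to 23690367), differed the most. It stood at 133, 149 and 150 CPM in control, 174.5, 211 and 193 in A and 121, 95.6 and 101 in B. The 3 groups did not overlap, with A highest and B lowest. The log2 fold change of B against A was -0.86 (SE 0.13, edgeR adjusted p = 3.88e-04), of B against control -0.45 (SE 0.13, edgeR adjusted p = 0.0328) and of A against control 0.42 (SE 0.13, edgeR adjusted p = 0.0894).

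CDC20, the activator of the anaphase-promoting complex (chromosome 1, 43358955 to 43363203), had 288, 324 and 308 CPM in control, 365, 416 and 409 in A and 299.7, 253 and 274 in B. Its A libraries lay above all others and B overlapped control. The log2 fold change of B against A was -0.53 (SE 0.12, edgeR adjusted p = 0.00763). BUB1 had 88.1, 63.0 and 72.9 CPM in control, 73.2, 56.5 and 68.5 in A and 47.6, 50.8 and 35.4 in B, so that here A overlapped control and B lay below both. KIF4A, a chromosome-bound kinesin, followed the same order of groups, with 55.7, 40.7 and 45.0 CPM in control, 50.1, 42.5 and 46.3 in A and 37.5, 35.6 and 26.9 in B. DLGAP5 had 60.9, 46.3 and 46.3 CPM in control, 44.3, 30.7 and 45.6 in A and 28.8, 29.2 and 19.4 in B, with the B libraries below all others. TPX2, which activates AURKA on the spindle, had 216, 165 and 175 CPM in control, 202, 183 and 193 in A and 151, 146 and 121 in B.

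CENPE and TTK, among the genes with the largest falls in B, did not pass the test between B and A (log2 fold change -0.42 and -0.33, edgeR adjusted p = 0.0972 and 0.161), and the 95% interval for CENPE was -0.78 to -0.06. Without A3 or without B3 the count of 7 became 2, beside 4.02% and 3.94% of all genes lower. Without Nc1, Nc2 and B3 it was 2 (PLK1 and CDC20), beside 5.31%. A count of 2 among 40 is near those shares.

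Other genes of the cell cycle were counted by lists, against the same background. In B against control, 8 of 12 genes of cohesin and separase fell, the ring that holds sister chromatids together and the protease that opens it. SMC3, a core arm of the ring, fell from 65.4 ± 15.2 to 35.7 ± 5.32 CPM (n = 3 each), and STAG1, STAG2 and SGO2 fell by 0.86, 0.75 and 0.74 on the log2 scale. Of 8 condensin genes, which compact mitotic chromosomes, 3 fell: SMC2 by 0.89, SMC4 by 0.64 and NCAPG by 0.60. Of the other kinetochore genes 3 of 18 fell (SKA3, CENPU and CENPI) and of the anaphase-promoting complex 2 of 14 (CDC27 and ANAPC1). Of other entry regulators 1 of 12 fell (BORA, an activator of AURKA) and of DREAM, MuvB and E2F factors 1 of 16 (LIN9, a MuvB subunit, by 0.82). Those last 2 shares, 8.33% and 6.25%, are near the 7.24% of all genes called lower. DNA replication genes gave 0 of 16 in either direction in B against control, with a median of -0.04, 1 at an unadjusted p below 0.05 and a range of -0.40 to 0.22. Of 8 tested cell cycle inhibitors and p53 targets, BTG2 and GDF15 rose, by 0.42 and 0.86 on the log2 scale, and 0 fell.

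In A against control, SMC2 alone of these lists passed the test, at a log2 fold change of -0.71. That is 1 of 104 tested genes (0.962%), near the 0.953% of all genes called lower. Between B and A, 10 of the 104 tested genes of these lists were lower and 7 higher (9.62% and 6.73%), near the shares of all genes, 9.25% and 8.79%. PCNA, the sliding clamp of replication, was higher in B (396 ± 46.8 against 283 ± 9.13 CPM), as were ORC6, E2F2, SKA1, CENPH, CDKN2C and BTG2. UBE2S, which extends ubiquitin chains with UBE2C, was lower in B at 141 ± 22.9 against 268 ± 49.96 CPM, as were CCNF, ANAPC1, FZR1, NCAPD2, NCAPH2, SKA3, STAG1, ESPL1 and MYBL2.

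The 40 genes differed from the rest in base composition, and base composition moved with the fold changes. The median GC content of their longest GENCODE 29 transcripts was 42.9%, against 48.4% for all tested genes with a transcript. Across the 40, which share the same libraries, Pearson's r of log2 fold change with GC content was 0.90 for A against control, 0.67 for B against control and -0.13 for B against A. Over 13836 genes it was 0.49, 0.24 and -0.15. CENPE and HMMR are among the poorest in GC, at 35.3% and 36.7%, and PLK1 and CDC20 among the richest, at 57.1% and 57.9%. Of the 15 members in the lowest of 5 equal groups of genes by GC content, 12 fell in B, where 19.98% of all genes in that group did so, and their median was -0.67 beside -0.26 for the group. In the middle one of the 5 groups 1 of 11 fell, beside 2.17% of its genes.

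The libraries themselves differed in this way. Relative to the control mean, the median of this low-GC group was 0.21 in Nc1, -0.14 in Nc2 and -0.06 in Nc3, and that of the 40 genes was 0.21, -0.12 and -0.04. In A1, A2 and A3 the low-GC group stood at -0.13, -0.39 and -0.28 and the 40 at -0.02, -0.36 and -0.14. In B1, B2 and B3 the low-GC group stood at -0.31, -0.07 and -0.36 and the 40 at -0.36, -0.32 and -0.53. In B1 and B3 both the low-GC group and the 40 were below the control mean, and in B2 the low-GC group was near it. The part of base composition in the falls was not tested.

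An offset for GC content and length was fitted in each library, an alternative chosen after the data were seen. With it, 20 of the 40 were lower in B than in control, including all 18 called without it, plus TPX2 and MKI67. The background was then 9.87% of genes lower. The median of the 40 moved from -0.38 to -0.27, while that of all genes was 0.05. HMMR had a log2 fold change of -0.84 (edgeR adjusted p = 2.10e-04), CENPE of -0.72 (edgeR adjusted p = 0.00168) and TTK of -0.70 (edgeR adjusted p = 2.55e-04). In A, CENPE was not called with the offset (log2 fold change -0.33, edgeR adjusted p = 0.179), TTK was, and the median of the 40 was -0.04, beside -0.01 over all genes and 1.81% of genes lower. Between B and A, 19 of the 40 were lower with the offset, including the 7 called without it, beside 12.3% of genes.

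**Figure D4:**
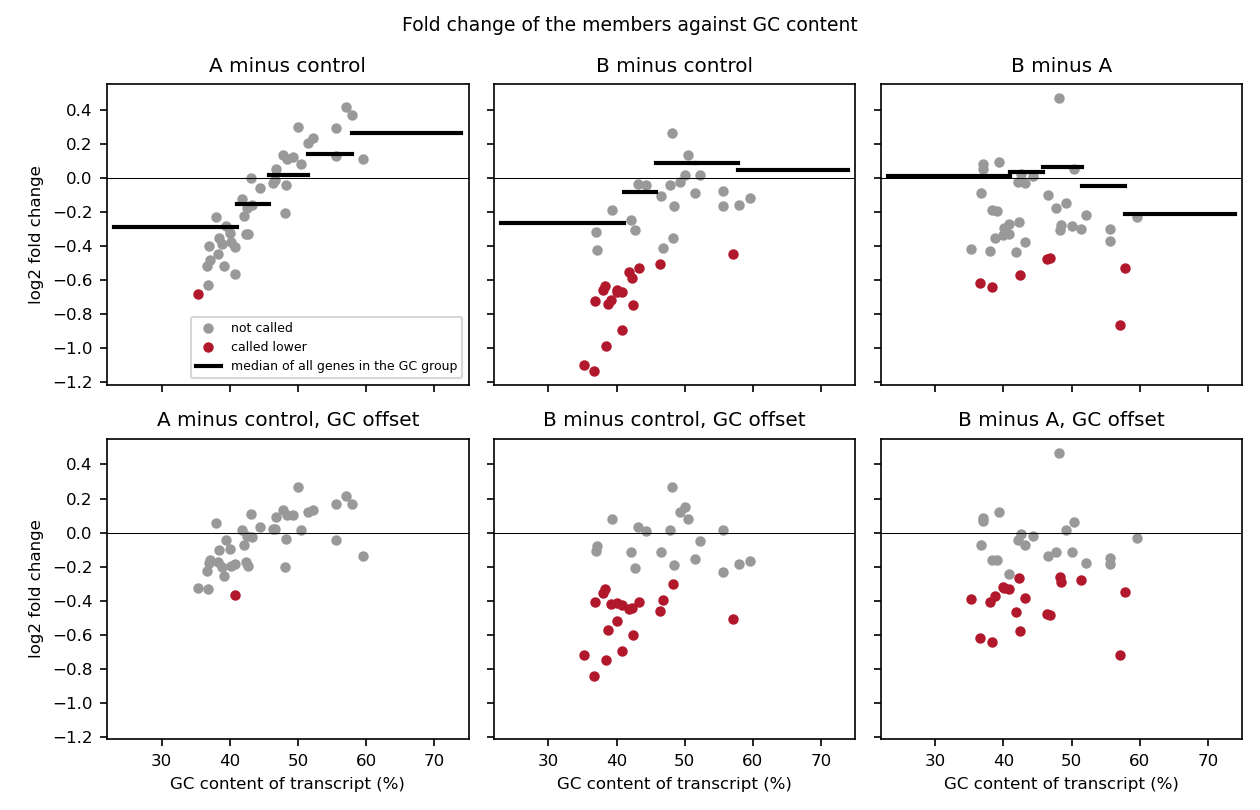
Log2 fold change (y axis) of the 40 genes against the GC content of their longest transcript (x axis, percent) in 3 comparisons, as measured (top) and with the GC content and length offset (bottom). Red points passed the test, grey points did not, and black bars give the median of all genes in each of the 5 groups of GC content. In A minus control the points rise along the bars, and in B minus control most low-GC points lie below the bar.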

How the data were processed

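The authors deposited whole-number counts per gene and library with no normalization, and FPKM. Each FPKM equalled the count over gene length and a constant of 0.936 to 1.07 times the library total. FastQC, HISAT2, StringTie and the GRCh38 build are listed in the submitters' processing notes. No annotation release, strand setting or multi-mapping rule is stated there. Genes were filtered with filterByExpr and all 9 libraries were fitted together with edgeR 4.0.16 (TMM sizes, quasi-likelihood test, Benjamini-Hochberg adjustment at 0.05) in R 4.3.3. DESeq2 1.42.0 and limma 3.58.1 gave alternatives, and Python 3.11.15 the rest. Intervals are 95% intervals of the fitted fold change. No 2 libraries of a group were copies: 2641 to 7708 genes differed beyond counting noise in each pair. Control and A libraries of the same number deviated together (r = 0.232 to 0.581 in 3 of 3 pairs), and those of unlike number had -0.447 to 0.16. These numbers were therefore taken to pair them, and the blocked value is given for A against control. B libraries did not deviate with those of the same number (-0.398 to -0.21 with control, -0.301 to -0.186 with A). No label states the pairing, and B2 reached 0.401 with Nc1 and with A1, of unlike number, so it is a reading of these data. All 40 genes had the same coordinates in GENCODE 29.

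The members and lists were chosen with earlier results of these data known. Values in every library are given for the members with the largest and smallest absolute fold change of each role list, for MKI67, CCNB1 and FOXM1, and for BUB1, DLGAP5, TPX2 and KIF4A beside the comparison of B and A. Of other lists, up to 4 called genes with the largest change are named, and further called genes were named after their values were seen.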

Additional observations from a re-analysis of the deposited data

Results flagged for a closer look

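For 7 of the 40 genes the effect in B differed from the effect in A, by the direct test of B against A. The difference on the log2 scale was -0.864 for PLK1, -0.64 for DLGAP5, -0.617 for HMMR, -0.568 for BUB1, -0.526 for CDC20, -0.476 for KIF4A and -0.469 for TPX2. All 3 B libraries lay below all 3 A libraries for each of the 7, though barely for HMMR (18.75 CPM in B2 against 18.78 in A2). The same held for 17.1% of all genes, and the 7 were picked by a test of these same values. Among the 7, PLK1 and CDC20 are the pair whose fold change against control was above 0 in A and below 0 in B with A wholly above control.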

How the results depend on the processing

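The median log2 fold change of the 40 genes kept its sign under each alternative run, at -0.286 to -0.022 for A against control, -0.436 to -0.266 for B against control and -0.308 to -0.185 for B against A. In A the value nearest 0, -0.022 without Nc1, stood beside 0.016 over all genes, so a kept sign says little there. Asking for a minimum fold change alters calls alone, so its medians equal those of the main fit. Counts of calls moved more, for causes that were not tested except where noted. Percentages beside the counts of members called lower, where given, are shares of all genes tested that were lower. For A against control (1 of the 40 and 376 genes), DESeq2 size factors gave 2 members (1.10%) and library totals 0 (0.701%). The DESeq2 test gave 6 (2.57%, 794 genes) and no filter on low counts 9 (2.37%, 992 genes). Requiring a mean of 100 counts gave 2 (1.25%). Limma gave 0 on log2(FPKM + 0.1) (0.592%, 226 genes) and on log2(FPKM + 1) (0.513%, 223 genes). A log2 fold change of at least 1 as well gave 0 (0.303%, 83 genes). For B against control (18 and 1850 genes), that fold minimum gave 2 members (0.332%, 334 genes). For B against A (7 and 2498 genes), it gave 0 (0.925%, 592 genes). B against A also gave 2 with library totals (5.8%), 2 when 100 counts were required (7.66%) and 4 with limma on log2(FPKM + 1) (7.68%). Those last counts among 40 are near their shares. With library totals, 39.8% of calls in B against control and 37.4% in B against A were lower, beside 54.2% and 51.3%. Leaving out 1 library gave 0 to 5, 5 to 19 and 2 to 7 members and 101 to 910, 489 to 1708 and 1160 to 2732 genes in the 3 comparisons. Genes lower were then 0.225% to 2.47%, 1.44% to 7.45% and 3.94% to 10.3% of all genes tested. These fits have fewer samples. Without the 3 libraries with over 5000 HBB counts, members and genes were 0 and 66, 1 and 44, and 2 and 1593. Without the 5 with over 500 they were 0 and 30, 1 and 57, and 0 and 460, and control and A are then 1 library each, assumed to vary like B1 and B2. Without the 3 libraries, medians of the 40 in the 3 comparisons were -0.068, -0.268 and -0.223, beside 0.043, 0.025 and -0.001 over all genes. Without the 5 libraries they were -0.079, -0.268 and -0.227, beside 0.021, 0.025 and 0.01. The GC content and length offset gave 566, 3312 and 4190 genes and 19 members in B against A (12.3%). The replicate block gave 0, 17 and 6 members, beside 0.686%, 6.19% and 7.08% of all genes lower. It called 244 genes for A against control, the 1 comparison whose numbers were taken to pair. The block with the GC content and length offset gave 1, 21 and 16 members, beside 1.37%, 8.76% and 11.2%. It called 2943 and 3815 genes for B against control and B against A. The offset, alone or with the block, and the leaving out of libraries by HBB were chosen after the data were seen. For B against control, HMMR alone was called in 20 of 20 alternatives, and 12 of the 18 in 16 or more. At the other end, 4 of the 18 were called in under 12: KIF11 in 11, KIF4A in 10, NEK2 in 9 and BUB1B in 8. By FPKM, every B library lay below every control library for 22 of the 40, and the share of all genes by FPKM was not computed. By CPM it was 20, beside 14.6% of all genes. Fold changes of PRC1 are limited by its 4 to 24 counts.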
